A study of Homo sapiens with 12 samples.

Results

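The histone deacetylases (HDACs) remove acetyl groups from lysines of histones and of many other proteins. The zinc-dependent members fall into class I (HDAC1, HDAC2, HDAC3 and HDAC8), class IIa (HDAC4, HDAC5 and HDAC7, with HDAC9 not described here), class IIb (HDAC6 and HDAC10) and class IV (HDAC11). Class I enzymes are mainly nuclear, and HDAC1, HDAC2 and HDAC3 act as the catalytic subunits of corepressor complexes. Class IIa enzymes shuttle between nucleus and cytoplasm and have little catalytic activity of their own on acetyl-lysine. HDAC6 deacetylates cytoplasmic proteins such as alpha-tubulin and HSP90, and HDAC10 acts on acetylated polyamines.

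The 10 genes were chosen by name, and each was represented by every assembled transcript that carried the gene name and either matched a reference transcript exactly (class code =) or shared at least a splice junction with one (class code j). This gave 331 transcripts of 286562 with those codes, and 10 of 56537 gene names. Of the 331 transcripts, 87 exceeded 0.5 FPKM (fragments per kilobase of transcript, scaled to the number of mapped fragments in the library) in at least 3 libraries, and these carried from 70.8% of all FPKM of HDAC11 to 99.4% of that of HDAC1. HDAC6 and HDAC8 had 38 and 20 further copies among the 331 on alternate sequence patches, all of which were at 0. The reference types of the 87 transcripts were protein coding for 42, retained intron for 25 and another noncoding type for the rest of the 39 noncoding ones, and 6 had an identifier with no type in the annotation used here. Every type other than protein coding was counted as noncoding. The others are transcripts typed as targets of nonsense-mediated decay and transcripts of coding genes with no defined coding part.

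HCT116, an established human colorectal carcinoma line, was kept at 21% oxygen (0 h) or moved to 1% oxygen for 1, 2 or 24 h, and poly(A) RNA was sequenced from 3 replicates per time, 12 libraries in all. Each later time was compared with the same 3 libraries at 0 h, so the 3 comparisons share their controls. The study asked how transcripts and their isoforms change under low oxygen.

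All 6 epithelial markers were expressed in every library (KRT8 from 786 to 1191 FPKM, EPCAM from 213 to 354 FPKM), and at 24 h 3 of the 6 had risen with the values as deposited (CDH1 from 7.42 ± 0.73 to 26.3 ± 1.72 FPKM, KRT19 and CLDN7) and 0 had fallen, whereas after rescaling each library to a fixed sum (TPM) 0 rose and 1 fell. PTPRC, CD3E, PECAM1, CDH5 and DCN, which mark leukocytes, endothelium and fibroblasts, stayed at or below 0.0763 FPKM. The fibroblast marker COL1A1 was the exception among the 6 markers of other cell types, and it set their summed level of 1.82 to 2.16 FPKM at 0 h and of 5.75 to 8.79 FPKM at 24 h. The part of either shift in the results at 24 h was not tested. In these bulk libraries a smaller number of cells of some kind and less RNA per cell cannot be told apart. The values carry no read counts, so the depth behind a single value is unknown. Short transcripts of under 300 bases held from 57.0% to 87.6% of a library's summed FPKM, whereas among the HDACs they held 0.397% of the FPKM of HDAC3 and none of that of the other 9 genes.

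Before the shift to low oxygen, HDAC2 and HDAC1 were the most abundant members. HDAC2, which partners HDAC1 in the SIN3, NuRD and CoREST complexes, stood at 144 ± 4.74 FPKM (mean ± SD, n = 3), and HDAC1 at 134 ± 16.1 FPKM. They lay at the 95.1 and 94.7 percentiles of the 16680 gene names tested, and their ranges overlapped. HDAC3, the catalytic subunit of nuclear receptor corepressor complexes, followed at 47.3 ± 0.57 FPKM and overlapped neither neighbour.

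The other 7 genes were at or below 14.2 FPKM at 0 h. HDAC6 (14.2 ± 0.82), HDAC8 (12.4 ± 1.04), HDAC7 (11.4 ± 1.63) and HDAC10 (10.1 ± 0.86 FPKM) each overlapped the next in the order. HDAC5 at 8.27 ± 1.22 FPKM lay below HDAC10 without overlap. HDAC11 (3.88 ± 0.56 FPKM) and HDAC4 (3.36 ± 0.71 FPKM) were lowest, at the 34.7 and 32.2 percentiles, and overlapped each other.

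With the values as deposited, no HDAC gene was called in the first 2 hours. At 1 h 0 of 10 members passed an adjusted p of 0.05 (limma with Benjamini-Hochberg adjustment over 16680 gene names), where 1 gene name of all (0.006%) did. At 2 h 0 of 10 passed, where 52 of all (0.312%) did. After rescaling each library to a fixed sum over all transcripts (TPM), 6 members were called at 2 h, all negative (HDAC1, HDAC3, HDAC6, HDAC7, HDAC10 and HDAC11), where 61.4% of the 14531 gene names tested fell. With the rescaling limited to transcripts of at least 300 bases, 0 members were called at 2 h (limma), where 34 of 17187 gene names rose and 24 fell. With the deposited values none met the thresholds for differential expression used in the study, a fold change over 2 with a false discovery rate under 1%, where 0.006% of all gene names did at 1 h and 0.018% at 2 h. At an unadjusted p under 0.05 there was 1 member at 1 h (HDAC10) and there were 2 at 2 h (HDAC7 and HDAC10), of 769 and 2547 gene names in all.

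HDAC10 had the largest log2 fold change of the 10 members at each of these times. Its FPKM in the 3 libraries was 9.41, 9.75 and 11.0 at 0 h, 6.10, 7.32 and 6.11 at 1 h, and 7.49, 6.29 and 6.56 at 2 h. Every early hypoxic library was below every library at 0 h. The log2 fold change was -0.59 ± 0.13 (SE) at 1 h and -0.54 ± 0.13 at 2 h, and neither passed after adjustment (limma, adjusted p = 0.79 and 0.111). Ranges of 3 and 3 libraries were apart for 2 of 10 members at 1 h (HDAC2 and HDAC10), where this held for 13.7% of all gene names, and for 4 of 10 at 2 h (HDAC2, HDAC3, HDAC7 and HDAC10), where it held for 25.3%.

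After 24 h in 1% oxygen 6 of 10 members had risen (HDAC3, HDAC4, HDAC5, HDAC6, HDAC10 and HDAC11) and 1 had fallen (HDAC2), while HDAC1, HDAC7 and HDAC8 were not called (limma, adjusted p under 0.05). Of all gene names tested 25% rose and 30.3% fell. Under TPM the median of all gene names moved to -0.78 on the log2 scale, HDAC3 and HDAC11 turned negative (-0.30 and -0.29) and HDAC2 alone was called (adjusted p = 0.02, limma), where 44.6% of all gene names fell. HDAC4 (0.78), HDAC5 (0.55), HDAC6 (0.03) and HDAC10 (0.13) stayed positive without a call. Relative to the median of -0.78 the changes under TPM were 0.48 for HDAC3, 1.56 for HDAC4, 1.33 for HDAC5, 0.81 for HDAC6, 0.92 for HDAC10, 0.50 for HDAC11 and -0.49 for HDAC2. Under TPM 390 gene names of all rose and 6477 fell, against 4170 and 5058 with the values as deposited. With TPM computed over transcripts of at least 300 bases, the median of all gene names was -0.13. In that setting 5 members rose and HDAC2 fell, where 3603 of 17187 gene names rose and 5652 fell. HDAC3 was at 0.46 (adjusted p = 0.000787) and HDAC11 at 0.37 (adjusted p = 0.102, limma).

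The median log2 fold change of the 10 members at 24 h was 0.50, beside -0.05 for all gene names. The ranges at 0 h and 24 h were apart for 7 of 10 members, where this held for 60.4% of all gene names. Between 2 h and 24 h 6 members rose and 1 fell, where 23.2% of all gene names rose and 27.4% fell. HDAC4 and HDAC5 met the study's thresholds, 2 of 10 members where 18.3% of all gene names met them.

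**Figure D1:**
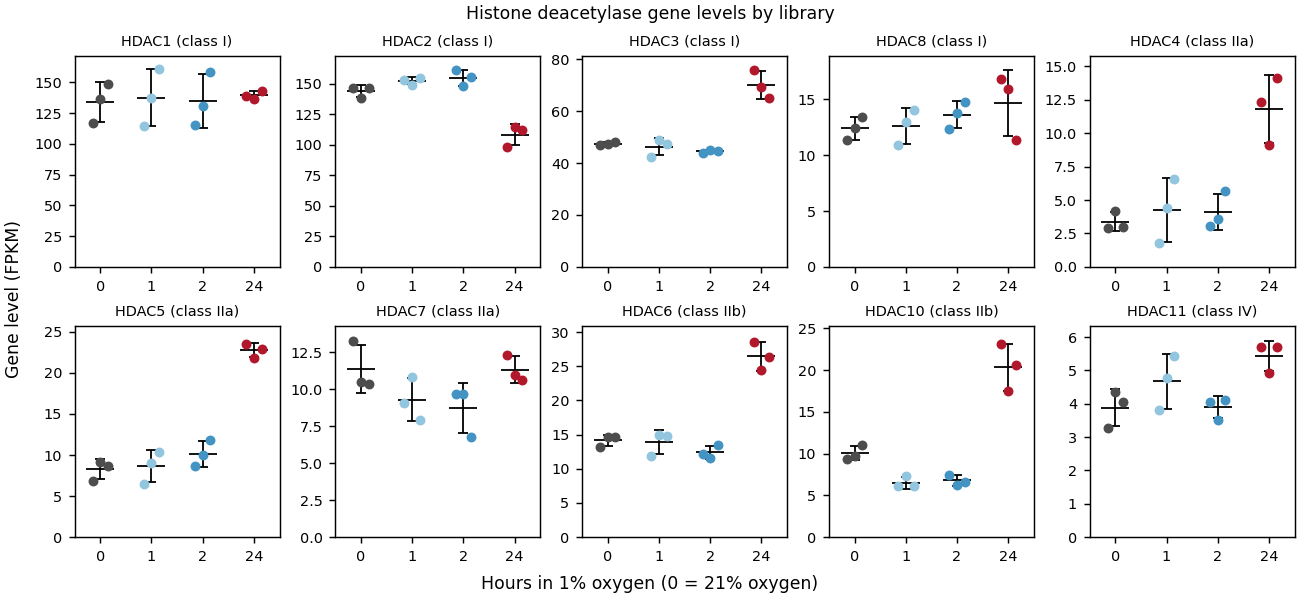
Gene level in FPKM (vertical axis, from 0) against hours in 1% oxygen, 1 panel per gene; points are the 3 libraries of a time, and bars are mean ± SD. With the values as deposited, the 24 h libraries of HDAC3, HDAC4, HDAC5, HDAC6, HDAC10 and HDAC11 lie above all libraries at 0 h and those of HDAC2 below them. Under TPM none of these rises was called (limma). The log2 changes were then 0.78 for HDAC4, 0.55 for HDAC5, 0.03 for HDAC6, 0.13 for HDAC10, -0.30 for HDAC3 and -0.29 for HDAC11.

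With the values as deposited, the members with the largest log2 fold changes between 0 h and 24 h were in class IIa. Under TPM the largest absolute change was that of HDAC2, at -1.27. HDAC4, a corepressor of MEF2 transcription factors, had 2.90, 4.19 and 3.01 FPKM in the libraries at 0 h and 12.3, 9.08 and 14.1 FPKM in those at 24 h. The libraries at 1 h had 1.83, 4.37 and 6.59 FPKM, and those at 2 h had 3.07, 3.62 and 5.66 FPKM. All 3 libraries at 24 h exceeded the other 9. The log2 fold change at 24 h was 1.67 ± 0.35 (SE; adjusted p = 0.00141, limma), a 3.18-fold rise on the scale with 0.5 FPKM added.

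HDAC5, a close relative of HDAC4 that binds the same MEF2 factors, was at 6.89, 9.21 and 8.72 FPKM at 0 h and at 23.5, 21.9 and 22.9 FPKM at 24 h, with 6.51 to 11.8 FPKM in the 6 libraries between. The 24 h libraries stood apart from all others. It rose by a log2 fold change of 1.42 ± 0.17 (adjusted p = 2.58e-05, limma). HDAC7, the third class IIa gene here, was at 13.3, 10.5 and 10.4 FPKM at 0 h and at 12.3, 11.0 and 10.6 FPKM at 24 h, with overlapping ranges and a log2 fold change of 0.00 ± 0.16 (adjusted p = 0.996, limma).

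Both class IIb genes rose. HDAC6, the cytoplasmic tubulin deacetylase, was at 13.2, 14.6 and 14.7 FPKM at 0 h, between 11.6 and 15.0 FPKM at 1 h and 2 h, and at 28.5, 24.4 and 26.4 FPKM at 24 h. Its log2 fold change at 24 h was 0.88 ± 0.11 (adjusted p = 4.71e-05, limma). HDAC10 was at 23.1, 17.5 and 20.6 FPKM at 24 h, above all 9 earlier libraries, with a log2 fold change of 0.98 ± 0.13 (adjusted p = 5.85e-05, limma).

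Class I was split. HDAC3 was at 46.8, 47.3 and 47.9 FPKM at 0 h and at 75.6, 69.2 and 65.1 FPKM at 24 h, a log2 fold change of 0.56 ± 0.09 (adjusted p = 0.000161, limma). HDAC2 was at 147, 138.5 and 147 FPKM at 0 h and at 98.3, 115 and 112 FPKM at 24 h, with each 24 h library below each of the other 9 libraries. It fell by 0.41 ± 0.08 on the log2 scale (adjusted p = 0.00104, limma). HDAC1 was at 117, 137 and 149 FPKM at 0 h and at 139, 136.5 and 143 FPKM at 24 h, within the range at 0 h (log2 fold change 0.06 ± 0.14, adjusted p = 0.728, limma). HDAC8, which has cohesin subunit SMC3 as a substrate, was at 11.4, 12.5 and 13.4 FPKM at 0 h and at 16.9, 15.9 and 11.4 FPKM at 24 h. The third library at 24 h lay at the lower end of those at 0 h, and the log2 fold change was 0.22 ± 0.15 (adjusted p = 0.245, limma). Without that library it was 0.39 with an adjusted p of 0.0272.

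HDAC11, the class IV member and a defatty-acylase, was at 3.26, 4.35 and 4.04 FPKM at 0 h and at 5.70, 4.92 and 5.70 FPKM at 24 h. The ranges were apart, and the log2 fold change was 0.44 ± 0.15 (adjusted p = 0.0259, limma). This call is the least stable of the 7. The adjusted p (limma) was 0.112 without the first library at 0 h, 0.0629 without the first and 0.0634 without the third library at 24 h, and 0.0804 with exact reference matches alone. When transcripts were filtered before they were summed, the value was -0.27 (adjusted p = 0.316, limma), and the 5 HDAC11 transcripts past the filter summed to 3.32 ± 0.56 FPKM at 0 h and 2.71 ± 0.84 FPKM at 24 h.

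**Figure D2:**
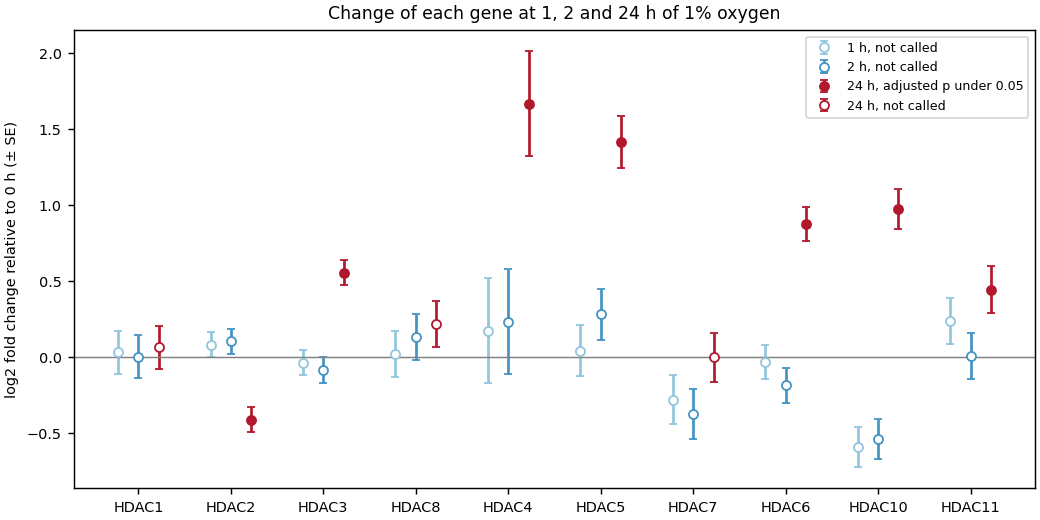
Log2 fold change relative to 0 h with its standard error (vertical axis) for each gene (horizontal axis) at 1, 2 and 24 h, on log2(FPKM + 0.5); filled points passed an adjusted p of 0.05 and open points did not. No point at 1 h or 2 h is filled, and at 24 h 6 genes are filled above 0 and HDAC2 below. Under TPM none of these 6 rises was called, and the values of HDAC3 and HDAC11 at 24 h were -0.30 and -0.29.

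These changes moved the order of levels at 24 h. HDAC1 (139.5 ± 3.15 FPKM) then lay above HDAC2 (108 ± 8.75 FPKM) without overlap, and HDAC3 (70.0 ± 5.32 FPKM) below both. HDAC6 (26.5 ± 2.08 FPKM) was followed without overlap by HDAC5 (22.8 ± 0.84 FPKM), which overlapped HDAC10 (20.4 ± 2.81 FPKM). HDAC8, HDAC4 and HDAC7 came next, from 14.7 to 11.3 FPKM, each overlapping its neighbour. HDAC11 was lowest at 5.44 ± 0.45 FPKM.

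The summed FPKM of the 10 genes was 389 ± 19.0 before the shift, 396 ± 34.0 after 1 h, 394 ± 24.6 after 2 h and 431 ± 5.21 after 24 h. Class I made up from 86.4% to 87.3% of that sum in the libraries at 0 h and from 75.8% to 79.1% at 24 h. Class IIa went from 5.41 to 6.22% at 0 h to 9.86 to 11.1% at 24 h, and class IIb from 6.11 to 6.29% to 9.84 to 11.9%. The ranges of these 3 shares did not overlap between 0 h and 24 h. Their shares are parts of 1 sum and so are not independent.

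By Pearson's r of log2(FPKM + 0.5) over the 12 libraries, given as a description, the gene names most like HDAC4 among 10268 with a mean of at least 5 FPKM were PACS1 (0.977), DMTN (0.970) and PGPEP1 (0.969), which went from 10.8, 11.7 and 3.64 FPKM at 0 h to 19.4, 26.7 and 13.2 FPKM at 24 h. Those most like HDAC2 were C11orf58 (0.988), SVIP (0.987) and POLR2B (0.987), which went from 128, 17.6 and 96.6 FPKM to 75.5, 9.82 and 63.5 FPKM. The 12 points are 3 libraries at each of 4 times.

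The reference types of the transcripts allowed each gene to be divided into coding and noncoding RNA. A retained-intron transcript keeps an intron that the coding transcript removes, and is classed as noncoding. At 24 h 15 of the 87 HDAC transcripts rose and 6 fell (limma, adjusted p under 0.05 over 62162 transcripts), where 11.3% of all transcripts rose and 15.3% fell. Among the 42 coding ones 5 rose and 6 fell, where 11.9% and 17.7% of all coding transcripts did. Among the 25 retained-intron ones 7 rose and 0 fell, where 14.6% and 7.41% of all retained-intron transcripts did. Under TPM 6 of the 15 rises, 2 of the 7 retained-intron rises and 6 of the 6 falls were still called. No share of all transcripts under TPM is given beside these counts. At the gene level 390 of 14531 gene names rose under TPM and 6477 fell. The 7 belonged to HDAC3 (3), HDAC10 (3) and HDAC6 (1). No HDAC transcript was called at 1 h or 2 h.

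The structures of these 7 transcripts in the reference had the same lengths as in the deposited table. Set against the coding transcripts ENST00000305264 (HDAC3), ENST00000334136 (HDAC6) and ENST00000216271 (HDAC10), 6 of them kept 1 or 2 whole introns, 9 introns in all, and HDAC3 ENST00000469550 kept 0 whole introns. All 9 introns begin with GT, end with AG and lie between coding exons, and 7 of the 9 hold a stop codon in the reading frame of the coding transcript. The splice sites of 1 intron per gene are shown, the first one kept by the retained-intron transcript with the largest log2 fold change, because they mark where the retained sequence starts and ends. The second introns kept by HDAC3 ENST00000471968 and HDAC10 ENST00000497952, introns 5 and 18, are not shown, and HDAC10 intron 18 holds no in-frame stop. Each window is 30 bases of GRCh37 in the sense of the gene, and the capitals are the first or last 2 bases of the intron:

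HDAC6 intron 6 donor, chrX:48664067-48664096, plus strand: gttggttcacagGTgaaggcttgggagcct
HDAC6 intron 6 acceptor, chrX:48664757-48664786, plus strand: tctcccatctgtgtctAGcctagaatatat
HDAC3 intron 4 donor, chr5:141009593-141009622, minus strand: ctgaacaacaagGTgacatagtcccgagtc
HDAC3 intron 4 acceptor, chr5:141009472-141009501, minus strand: taggtgtttgtctttcAGatctgtgatatt
HDAC10 intron 16 donor, chr22:50685090-50685119, minus strand: cgcccatgacggGTaggactctcaggtctt
HDAC10 intron 16 acceptor, chr22:50684794-50684823, minus strand: gcacctgtgtcctggaAGgaggagtctgtg

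In HDAC6 and HDAC10 intron 16 the in-frame stop begins at base 2 of the intron, and it is TGA in HDAC6 and TAG in HDAC10. In HDAC3 intron 4 it is a TAG at base 7.

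HDAC6 (GRCh37 chrX:48659784-48683392, plus strand) had the named transcript with the largest log2 fold change in level. Its retained-intron transcript ENST00000477528, of 4832 bases, was at 0.459, 0.418 and 0.186 FPKM at 0 h, between 0.165 and 0.475 FPKM in the 6 libraries at 1 h and 2 h, and at 5.01, 5.16 and 4.43 FPKM at 24 h. All libraries at 24 h exceeded the other 9, and the transcript had a log2 fold change of 2.66 ± 0.24 (adjusted p = 3.37e-05, limma). All 11 alternatives kept that call. It went from 3.23% ± 1.47 of the kept HDAC6 FPKM at 0 h to 23.1% ± 2.83 at 24 h (n = 3). Relative to the other HDAC6 transcripts it rose by 2.08 ± 0.29 on the log2 scale (adjusted p = 0.00157, limma, over all transcripts of gene names with at least 2).

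ENST00000477528 has 28 exons where the coding transcript ENST00000334136 has 29, and it keeps intron 6 of the latter, 696 bases at chrX:48664079-48664774. ENST00000334136, the most abundant HDAC6 transcript over the 12 libraries, was at 1.58, 3.28 and 2.99 FPKM at 0 h and at 1.61, 0.0347 and 3.51 FPKM at 24 h. Its libraries at 24 h spread over the whole range at 0 h, and neither its level (adjusted p = 0.299) nor its usage (change of -2.02 ± 0.60, adjusted p = 0.0523, limma) was called. The 8 coding HDAC6 transcripts together were at 7.17 ± 1.84 FPKM at 0 h and 10.5 ± 1.16 FPKM at 24 h, and the 4 noncoding ones at 2.68 ± 1.85 and 8.71 ± 1.56 FPKM.

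**Figure D3:**
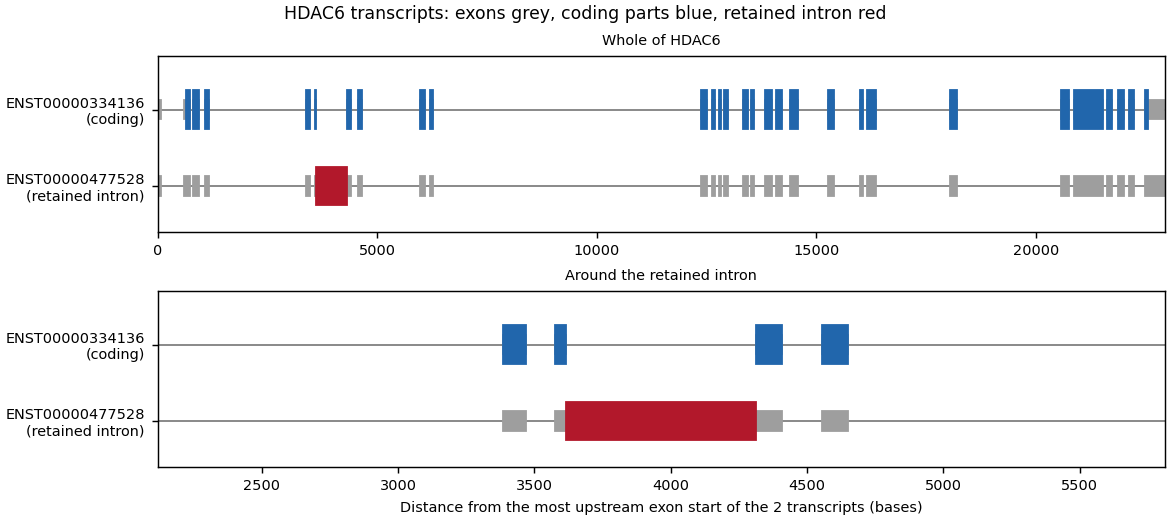
Exons (grey), coding parts (blue) and retained intron (red) of the HDAC6 transcripts ENST00000334136 and ENST00000477528 against distance in bases from the most upstream exon start, for the whole gene above and around the retained intron below. The retained intron spans 696 bases between coding exons of ENST00000334136.

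In HDAC3 (chr5:141000443-141016416, minus strand) coding and retained-intron transcripts rose in the values as deposited, while under TPM the coding one turned to -0.30 and none of these rises was called. The coding transcript ENST00000305264 was at 35.4, 35.5 and 37.1 FPKM at 0 h and at 60.1, 51.3 and 48.9 FPKM at 24 h, 77.7% of the kept HDAC3 FPKM at both times (log2 fold change 0.56 ± 0.12, adjusted p = 0.00573, limma). A variant of it with a different splice pattern (class code j, 1816 bases) fell from 5.60, 4.42 and 4.05 FPKM to 1.35, 2.01 and 2.79 FPKM (adjusted p = 0.0192, limma), a call that ended without the first library at 0 h (0.0711) or the first at 24 h (0.0643). Its share went from 10.1% ± 1.86 to 3.05% ± 1.28, a usage change of -1.72 ± 0.36 (adjusted p = 0.0116, limma). The retained-intron transcript ENST00000469550 rose from 2.27, 2.37 and 1.17 FPKM to 4.40, 3.70 and 4.41 FPKM (log2 fold change 0.98 ± 0.23, adjusted p = 0.00972, limma). The shorter ENST00000471968 and ENST00000490808 rose from means of 0.436 and 0.247 FPKM to 1.95 and 1.02 FPKM, with calls that ended without the third library at 0 h or the first at 24 h for the former, and without any 1 of 5 libraries for the latter.

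HDAC10 (chr22:50683612-50689834, minus strand) differed from the other members in being listed mostly as noncoding RNA at every time. Its 12 kept noncoding transcripts made up 78.1%, 86.4% and 86.1% of its kept FPKM at 0 h and 94.2%, 92.2% and 94.6% at 24 h. The share of its retained-intron transcripts alone was 55.8% ± 5.16 at 0 h and 59.1% ± 2.60 at 24 h, with overlapping ranges (adjusted p = 0.704, limma). Its coding transcripts summed to 1.48 ± 0.26 FPKM at 0 h and 1.19 ± 0.12 FPKM at 24 h, and its noncoding ones to 7.71 ± 1.29 and 17.9 ± 2.45 FPKM. The coding transcript ENST00000448072 was at 0.994, 0.700 and 0.698 FPKM at 0 h and was listed at 0 in all 3 libraries at 24 h (usage change -2.51 ± 0.35, adjusted p = 0.00177, limma). The other kept coding transcript, ENST00000216271, was at 0.775, 0.556 and 0.723 FPKM at 0 h and at 1.23, 1.28 and 1.06 FPKM at 24 h. Its level was not called (adjusted p = 0.398, limma). The retained-intron transcripts ENST00000475965 and ENST00000497952 rose from means of 0.771 and 0.152 FPKM to 2.89 and 2.27 FPKM (adjusted p = 0.0049 and 0.000831, limma), and ENST00000488270 from 0.945 to 2.28 FPKM. Under TPM the log2 fold changes of ENST00000475965 (0.58, adjusted p = 0.126) and ENST00000488270 (0.25, adjusted p = 0.535, limma) were not called. ENST00000470378, also of the retained-intron type, was at 0.788 ± 0.28 and 0.664 ± 0.29 FPKM (adjusted p = 0.751), and its share went from 8.43% ± 2.03 to 3.62% ± 1.87 (usage adjusted p = 0.0392, limma), a call that ended without any 1 of 5 libraries. The deposited locus of HDAC10 also holds MAPK11, MAPK12 and TUBGCP6.

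**Figure D4:**
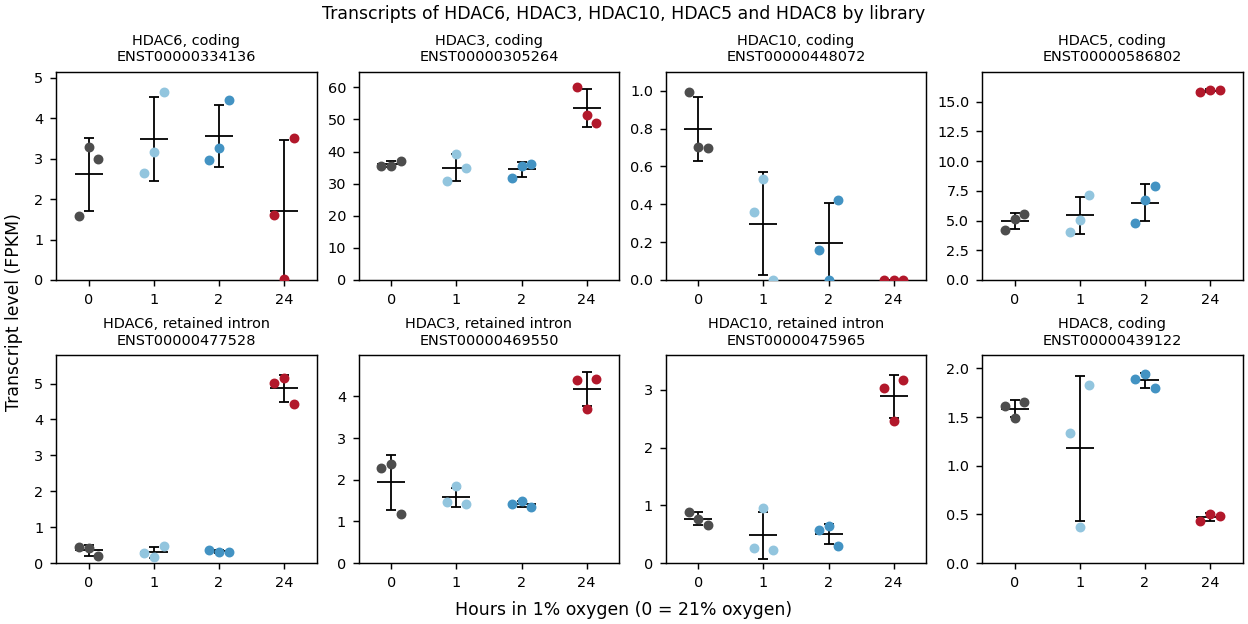
Level of 8 transcripts in FPKM (vertical axes, from 0) against hours in 1% oxygen; points are the 3 libraries of a time, and bars are mean ± SD. The retained-intron transcript of HDAC6 lies between 4.43 and 5.16 FPKM at 24 h against at most 0.475 FPKM at earlier times. The HDAC10 coding transcript shown, ENST00000448072, is at 0 in all libraries at 24 h. The other kept coding transcript of HDAC10, ENST00000216271, is not shown and was at 1.23, 1.28 and 1.06 FPKM at 24 h.

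HDAC5 (chr17:42154114-42201070, minus strand) and HDAC8 (chrX:71549366-71792951, minus strand) had usage calls among their coding transcripts, in HDAC8 for 2 that fell and for none that rose. HDAC5 ENST00000586802 was at 4.20, 5.10 and 5.59 FPKM at 0 h and at 15.8, 16.0 and 16.0 FPKM at 24 h, and it went from 64.9% ± 4.15 to 80.5% ± 2.54 of the kept FPKM (log2 fold change 1.60 ± 0.22, adjusted p = 0.000378, and usage adjusted p = 0.0482, limma). HDAC5 ENST00000591714 was at 0.728, 1.58 and 0.827 FPKM at 0 h and at 0.480, 0.458 and 0.302 FPKM at 24 h, with a usage change of -2.21 ± 0.36 (adjusted p = 0.00381, limma), and the class j variant of ENST00000225983 went from 8.66% ± 2.03 to 3.10% ± 0.85 (usage adjusted p = 0.0145, limma). The usage call of ENST00000586802 ended without any 1 of the 6 libraries, and that of the class j variant without the first library at 0 h (adjusted p = 0.0537) or with a pseudocount of 0.1 (adjusted p = 0.193). Under TPM the level of ENST00000586802 was not called (0.72, adjusted p = 0.142, limma).

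HDAC8 ENST00000439122 fell from 1.61, 1.49 and 1.65 FPKM to 0.429, 0.504 and 0.482 FPKM, and its share from 15.1% ± 2.95 to 3.37% ± 0.90 (usage adjusted p = 0.019, limma). Its level call ended without any 1 of the 6 libraries (adjusted p from 0.0524 to 0.0644), and its usage call without the first library at 0 h (0.0692) or the first (0.0541) or second (0.058) at 24 h. ENST00000373556 fell from 1.44, 1.24 and 1.37 FPKM to 0, 0.488 and 0.321 FPKM (log2 fold change -1.32 ± 0.31, adjusted p = 0.0083, limma). The most abundant HDAC8 transcript, ENST00000373573, was at 3.68, 3.13 and 3.58 FPKM at 0 h and at 4.87, 5.75 and 6.69 FPKM at 24 h (adjusted p = 0.052, limma). HDAC8 thus had isoform calls at 24 h and no call for the gene as a whole.

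In HDAC4 the transcript of highest mean level, ENST00000544989, is only 342 bases long and has no type in the annotation used here. It went from 1.66, 2.11 and 1.13 FPKM to 6.02, 3.59 and 7.50 FPKM (log2 fold change 1.51 ± 0.44, adjusted p = 0.025, limma), a call that ended without any 1 of 4 libraries. A class j variant of the coding ENST00000345617, of 8471 bases, was at or below 0.0171 FPKM at 0 h and between 1.19 and 2.11 FPKM at 24 h (adjusted p = 0.00307, limma). HDAC4 as a gene kept its call when transcripts under 500 bases were left out.

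In HDAC2 the coding ENST00000368632 fell from 112, 100.1 and 101 FPKM to 67.2, 85.0 and 81.4 FPKM (adjusted p = 0.00993, limma), and its share was 73.0% ± 3.73 and 72.5% ± 3.21. In HDAC1 the coding ENST00000373548 held 85.9% ± 0.98 of the kept FPKM at 0 h and 86.1% ± 4.06 at 24 h. HDAC7 ENST00000354334 went from 4.10 ± 0.67 to 2.34 ± 0.45 FPKM and HDAC11 ENST00000437379 from 1.58 ± 0.36 to 1.27 ± 0.18 FPKM, with adjusted p of 0.0667 and 0.65 (limma).

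In all, 5 of the 10 genes (HDAC3, HDAC5, HDAC6, HDAC8 and HDAC10) had at least 1 isoform whose usage changed at 24 h, where 34.3% of the 10680 gene names with at least 2 kept transcripts did. HDAC8 was not among them without the first library at 0 h or with limma's diffSplice, HDAC7 took the place of HDAC5 with a filter above 1 FPKM, and HDAC1 was added without the second library at 0 h.

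The share of FPKM in noncoding transcripts could be tested for 8 members. It rose in HDAC3 from 12.1% ± 1.27 to 19.3% ± 1.89, a gain of 7.15 ± 1.85 (SE) percentage points (adjusted p = 0.0417, limma; exact two-sided permutation p = 0.1, the smallest that 3 against 3 libraries can give). This was 1 of 8 members that rose and 0 fell, where 7.32% of 5982 gene names rose and 2.57% fell. The call ended when any 1 library was left out (adjusted p from 0.051 to 0.126). HDAC7 went from 28.0% ± 3.03 to 36.2% ± 3.44 (adjusted p = 0.103) and HDAC10 from 83.5% ± 4.73 to 93.7% ± 1.29 (adjusted p = 0.296, limma), both with ranges apart. HDAC6 was at 47.5%, 12.1% and 16.0% at 0 h and at 41.1%, 48.7% and 33.6% at 24 h. The first library at 0 h thus overlapped those at 24 h, and the gain of 15.9 ± 10.3 points was not called (adjusted p = 0.398, limma).

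When retained-intron transcripts alone were counted, HDAC3 gained 6.07 ± 1.16 points (adjusted p = 0.0104) and HDAC7 7.74 points (adjusted p = 0.0392, limma), 2 of the 7 members that could be tested, where 12% of 3322 gene names rose. HDAC6 (8.82 ± 7.33 points, adjusted p = 0.482) and HDAC10 (3.30 ± 4.72 points, adjusted p = 0.704, limma) were not called, nor were HDAC1, HDAC2 and HDAC5. The median change over all gene names was 0.64 points for the noncoding share and 1.10 points for the retained-intron share. A class j isoform takes the type of its nearest reference transcript in these shares.

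**Figure D5:**
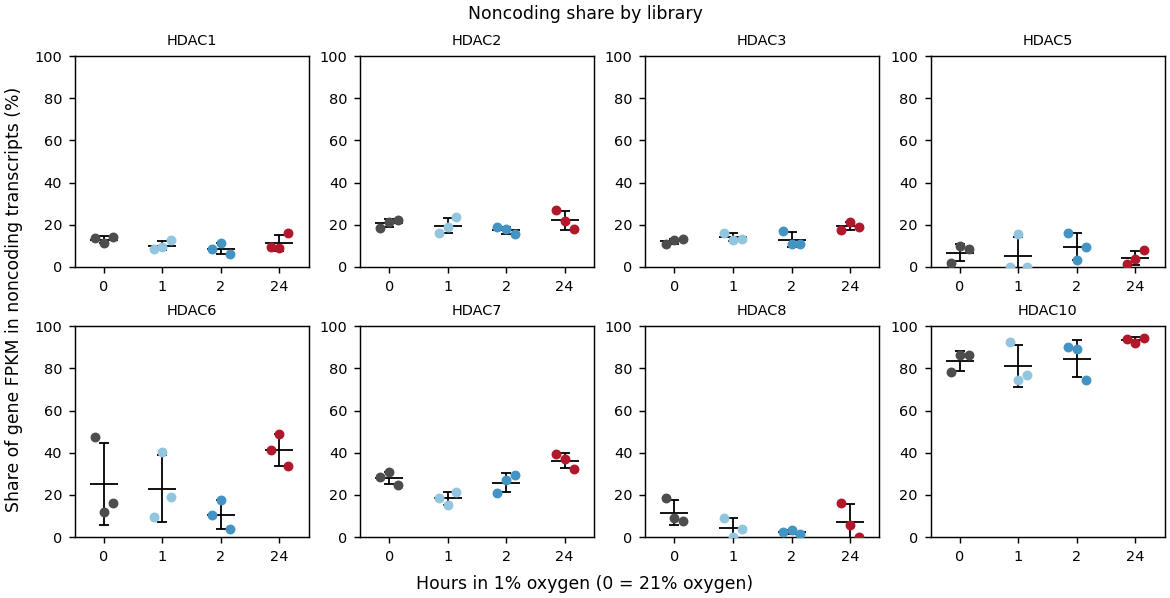
Share of a gene's kept FPKM in noncoding transcripts, in percent (vertical axes, 0 to 100), against hours in 1% oxygen for the 8 genes with both kinds of transcript; points are the 3 libraries of a time, and bars are mean ± SD. HDAC10 lies at or above 74.3% in all libraries, and 1 HDAC6 library at 0 h (47.5%) lies within the range at 24 h.

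The promoters of members were read for the hypoxia response core because HIF, the transcription factor stabilised in low oxygen, binds it. RefSeq promoter windows of 300 bases around a start (GRCh38.p14) matched 9 of the 10 genes by symbol, with 15 starts. ACGTG or GCGTG, read on both strands, occurred in 10 of these 15 windows, where 48.4% of 35116 windows of the same length held one, and ACGTG alone in 4, where 21.4% did. HDAC4 had a match in all 5 of its windows, HDAC3 and HDAC11 in their single windows, HDAC6 in 2 of 3, and HDAC2, which fell, in its single window. HDAC1, HDAC7, HDAC8 and HDAC10 had none. ACGTG occurred in 1 window of HDAC3 and 3 of HDAC4. The match of HDAC3 and, of those of HDAC4, the one nearest to a start are shown (capitals, 30 bases in the sense of the gene), chosen after the matches were seen, because these genes rose in the values as deposited (under TPM HDAC3 was at -0.30 and HDAC4 at 0.78 with an adjusted p of 0.0604, limma, neither called):

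HDAC3, 33 bases before the start, chr5:141636865-141636894, minus strand: cagaggccggctACGTGcttgcgcagcacg
HDAC4, 12 bases before the start, chr2:239401644-239401673, minus strand: gcacgcagcaccACGTGacccactgccagt

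In HDAC4 the same letters read CACGTG, so that the core occurs on both strands with overlap. A match is only a description of these letters.

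The partners of the HDACs were described by lists, with the values as deposited. Under TPM 0 genes rose in each of the 5 lists counted here, while from 2 to 8 fell. Of all 14531 gene names 390 rose and 6477 fell under TPM. Under median-of-ratios scaling the HDAC1 and HDAC2 complexes had 9 rises and 2 falls and the sirtuins 3 rises and 0 falls. With that scaling 4556 of 16670 gene names rose and 4605 fell. Under TPM the list medians minus that of all gene names were 0.10 for the HDAC1 and HDAC2 complexes, 0.00 for the class IIa partners and -1.01 for the HDAC6 partners. Of 20 subunits of the HDAC1 and HDAC2 complexes (SIN3, NuRD, CoREST and MiDAC), 9 rose, 5 fell and 6 were not called at 24 h, with a median log2 fold change of 0.15, where 25% of all gene names rose and 30.3% fell with a median of -0.05. CHD3, a NuRD remodelling ATPase, rose most (11.6 ± 1.09 to 29.6 ± 1.18 FPKM, log2 fold change 1.32 ± 0.13), with SAP30 (0.88 ± 0.15) and GATAD2B (0.55 ± 0.12) next. SAP18 fell by 0.74 ± 0.10 on the log2 scale, the lysine demethylase KDM1A fell by 0.58 ± 0.09 and SIN3B fell by 0.32 ± 0.12.

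Of the genes listed as partners of HDAC3, CORO2A went from 2.33 ± 0.20 to 6.37 ± 0.41 FPKM and TBL1X from 10.8 ± 1.65 to 18.6 ± 2.82 FPKM, while GPS2 fell from 45.8 ± 5.11 to 30.1 ± 7.40 FPKM. NCOR1 was at 10.4 ± 0.95 and 8.97 ± 1.91 FPKM (adjusted p = 0.428, limma). No count is given for this list.

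Of 13 class IIa partners and kinases tested, 5 rose, 5 fell and 3 were not called (median -0.08), beside the same 25% and 30.3% of all gene names, and PRKD1 was too low to test. MEF2D (1.07 ± 0.14 on the log2 scale), MEF2C (0.99 ± 0.32) and MEF2A (0.52 ± 0.18), the factors that HDAC4 and HDAC5 repress, rose. The 5 that fell were the 14-3-3 genes, which hold phosphorylated class IIa enzymes in the cytoplasm, with YWHAH (fell by 0.85 ± 0.10), YWHAB (fell by 0.66 ± 0.09) and YWHAQ (fell by 0.41 ± 0.08) the furthest.

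Of 8 HDAC6 partners and substrates, 0 rose, 7 fell and 1 was not called (median -0.92), beside 25% and 30.3% of all gene names. The co-chaperone DNAJA1 went from 332 ± 33.4 to 121 ± 34.4 FPKM, the chaperone HSP90AA1 from 2437 ± 243 to 1114 ± 98.1 FPKM and HSP90AB1 from 2784 ± 144 to 1394 ± 39.7 FPKM. The actin-binding substrate CTTN was at 73.1 ± 6.05 and 80.6 ± 7.42 FPKM (adjusted p = 0.277, limma).

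Of the 7 sirtuins, the NAD-dependent deacetylases, 2 rose (SIRT4 and SIRT3), 2 fell (SIRT1 and SIRT7) and 3 were not called. Of 9 histone acetyltransferases, 3 rose (KAT2B, KAT6B and EP300), 1 fell and 5 were not called. These shares stand beside 25% risen and 30.3% fallen of all gene names. The one that fell was HAT1, which acetylates newly made histone H4 and went from 96.8 ± 4.58 to 38.4 ± 4.22 FPKM, a log2 fold change of -1.33 ± 0.09 (adjusted p = 5.92e-07, limma).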

How the data were processed

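HCT116 poly(A) RNA from 3 libraries at each of 0, 1, 2 and 24 h in 1% oxygen was measured by strand-specific paired-end sequencing. The authors aligned the reads to hg19 with Mapsplice and deposited 1 table of Cufflinks FPKM values per assembled transcript and library (CASAVA 1.8.2 and Cufflinks are named in the submitters' processing notes). Read counts are not part of that table, so no count model was used. FPKM was summed per gene name over transcripts of class code = or j. Gene names above 0.5 FPKM in at least 3 libraries were tested on log2(FPKM + 0.5), which understates changes of low genes, with limma 3.58.1 in R 4.3.3 (empirical Bayes with a trend, all 12 libraries in 1 fit, Benjamini-Hochberg adjustment over all features tested, two-sided). Usage is the log2 ratio of a transcript to the other kept transcripts of its gene, and shares are percentages of kept FPKM, with untyped transcripts in the total. Types and coordinates are from GENCODE for GRCh37, and 4538 of 62162 kept transcripts had no type there. Tests were checked on simulated data.

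Named were all 10 members, per gene the most abundant transcripts and up to 4 with changed usage, up to 3 genes risen and 3 fallen in each partner list, and the 3 gene names most like the member with the largest rise and with the largest fall. One partner gene and the counts of its list are not reported here. Other transcripts that rose or fell were named after their values were seen. The members and lists were chosen with earlier results of these data known. Alternatives covered the pseudocount, filters, scaling, class codes, the replicate block and each library left out, and 1 (transcripts of at least 500 bases) was added after seeing the data. The study calls its replicates biological, but the labels do not say whether they are separate cultures, so p-values measure only the spread between these libraries. Same-numbered libraries at 0 h and 2 h deviated together (r from 0.129 to 0.362 over genes), and a paired fit with the number as a block changed no HDAC call at 2 h.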

Additional observations from a re-analysis of the deposited data

Results flagged for a closer look

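The change at 24 h differed from that at 2 h for 7 of the 10 genes, tested as 24 h against 2 h in the same limma fit with Benjamini-Hochberg adjustment over 16680 gene names. Of all gene names 23.2% rose and 27.4% fell between these times. The log2 difference was -0.52 for HDAC2 (adjusted p = 0.000244), 0.64 for HDAC3 (6.4e-05), 1.44 for HDAC4 (0.00425), 1.14 for HDAC5 (0.000162), 1.06 for HDAC6 (1.41e-05), 1.51 for HDAC10 (3.19e-06) and 0.44 for HDAC11 (0.0306). The libraries at 2 h and 24 h did not overlap for any of these 7, and the share of all gene names for which this held was not computed. Against 0 h the ranges at 24 h were apart for 60.4% of all gene names. HDAC10 had the largest of these differences, with 6.78 ± 0.63 FPKM at 2 h and 20.4 ± 2.81 FPKM at 24 h (n = 3).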

How the results depend on the processing

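Of 959 recomputed estimates for single genes, transcripts and shares, 878 kept their direction where called and their side of the threshold. Scaling to TPM moved most. At 2 h it gave 6 members past an adjusted p of 0.05 and 1 differentially expressed, with HDAC1 at -1.08 and HDAC11 at -0.80, and at 24 h it gave 1 and 0, with HDAC3 at -0.30, HDAC11 at -0.29 and HDAC3 ENST00000305264 at -0.30. Of all gene names 61.4% fell under TPM at 2 h and 44.6% at 24 h. Among the 14531 gene names, 14 risen and 526 fallen ones were differentially expressed at 2 h, and 209 and 3995 at 24 h. When TPM was limited to transcripts no shorter than 300 bases, 6 members were called at 24 h (5 rose, 1 fell) and 2 were differentially expressed, with HDAC3 at 0.46 and HDAC11 at 0.37. In that setting 3603 of 17187 gene names rose and 5652 fell, and 1405 and 2051 of these were differentially expressed. Filtering transcripts before summing turned HDAC11 at 24 h to -0.27. The number of members with a changed noncoding share was 0 with no filter, with a filter above 1 FPKM, with exact matches alone and with the replicate block, 2 for retained introns alone, and from 0 to 0 with each library left out. Calls and directions were kept in 226 of 256 alternatives for transcript levels and 56 of 77 for transcript usage.

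In a paired fit with the replicate number as a block, HDAC3's noncoding share had an adjusted p of 0.0754 (limma) and HDAC5 ENST00000586802 usage one of 0.0685, and the calls of HDAC genes at 24 h did not change. Same-numbered libraries at 0 h and 1 h had r from 0.0954 to 0.34, and each of 6 correlated best with its own number. At 0 h and 24 h r ran from -0.000785 to 0.242, and 2 of 6 did.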
